A study of Arabidopsis thaliana with 31 samples.

Results

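The genes of the root growth factor (RGF) peptides and of tyrosylprotein sulfotransferase (TPST) were followed through 31 libraries of *Arabidopsis* root cells. The 10 genes were taken by locus, *RGF1* to *RGF9* and *TPST*, out of 32678 loci in the expression table, and the rule used their loci and no expression value. Of the 10 genes, 6 were above 0 in at least 1 library: *TPST*, *RGF1*, *RGF3*, *RGF4*, *RGF5* and *RGF8*. *RGF2*, *RGF6*, *RGF7* and *RGF9* were at 0 in every library, as were 15170 of all loci.

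RGF peptides are secreted signals that maintain the root stem cell niche. Each is cut from a longer precursor, and TPST, a Golgi enzyme, adds a sulfate to a tyrosine that follows an aspartate at the start of the mature peptide. Receptor kinases of the leucine-rich repeat class perceive the sulfated peptide and maintain the PLETHORA transcription factors, among them PLT1 and PLT2, in the meristem. TPST also sulfates other peptide signals, such as phytosulfokines (PSKs). The quiescent center (QC) is the group of rarely dividing cells at the center of the niche, and the stele is the inner tissue that holds the vascular cells.

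The stretch of each gene that encodes the mature peptide is shown because it holds the codons of the sulfated site and shows how far the family members differ where 50-base reads could confuse them. The stretches below belong to the 5 *RGF* genes with reads and to *RGF2*, and each lies in 1 coding exon (RefSeq, TAIR10.1). They are written on the coding strand with the aspartate and tyrosine codons in capitals.
RGF1, chr5:24466534-24466572, minus strand: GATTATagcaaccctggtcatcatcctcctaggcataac
RGF2, chr1:4669184-4669222, plus strand: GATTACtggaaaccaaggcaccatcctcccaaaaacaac
RGF3, chr2:1276902-1276940, minus strand: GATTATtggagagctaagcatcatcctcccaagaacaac
RGF4, chr3:11960573-11960620, minus strand: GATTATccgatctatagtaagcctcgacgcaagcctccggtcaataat
RGF5, chr5:20898713-20898751, plus strand: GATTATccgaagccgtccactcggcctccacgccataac
RGF8, chr2:1172085-1172123, plus strand: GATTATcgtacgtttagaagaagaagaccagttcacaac
The stretches were 39 bases long except for *RGF4*, which had 48. Over the 28 pairs of equal length, 41% to 82.1% of the bases were the same, with a median of 51.3%. *RGF2* and *RGF3* were the closest pair at 82.1%, and *RGF1* and *RGF3* came next at 69.2%. No run of 50 bases was shared between annotated transcripts of any of the 45 pairs of the 10 genes. *RGF3* reads and *RGF2* zeros therefore belong to sequences that an exact full-length read can tell apart. The authors aligned in local mode, in which a read need not match over its full length, and the placing of such reads was not tested.

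Single cells were picked by their fluorescence from digested roots, and their mRNA was amplified and sequenced. There were 20 QC cells and 4 aliquots made by pooling QC cells and splitting the lysate, all marked by *WOX5:GFP* in Col-0 at a labelled age of 6 DAS, while the methods give harvest at 5 days after stratification. The root tip had been cut 16 h earlier for 4 stele cells and just before isolation (0 h) for 3 stele cells, all Col-0 at a labelled age of 7 DAS with the lineage marker *WOL:CRE-GR 35S:lox-CFP*. In these lines *GFP* marks cells that use the *WOX5* promoter, and *CFP* marks cells, with their daughters, in which the *WOL* promoter drove the recombinase during 24 h on dexamethasone, which both stele groups received. Expression is given in fragments per 1000000 (FPM), the share of a library's reads that fell on a gene, and differences are on the scale log2(FPM + 1). QC and stele cells came from different lines, ages and treatments, so that the effects of cell type and of these cannot be told apart. No plant was named for any cell, and each group was therefore taken as 1 sample: levels per cell, medians and ranges are given without a test.

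Library totals ran from 11637897 to 127775758 reads, and 1 read was worth less than 0.1 FPM in every library. In 21 libraries the detected genes were all among those of 1 larger gene list, that of a lead library, and a lead library with those nested in it is called a set. The list of QC cell 1 held those of QC cells 8 to 13. QC cells 3 to 7 were nested in QC cell 2, whereas QC cells 19 and 20 were nested in QC cell 14. The aliquots and each stele group formed 1 set each, and QC cells 15 to 18 belonged to none. A gene at 0 in a lead library was thus at 0 in its whole set, and a lead library listed no gene with a single read. A pair of libraries, QC cells 15 and 16, differed by a median chi-square per gene of only 2.38, and the pair of QC cells 17 and 18 by 2.41. The next closest pair reached 184.1, and the members of both close pairs are called nearly alike. The QC markers *WOX5*, *SCR*, *PLT1*, *BBM* and *AGL42* summed to between 402.5 and 4794.1 FPM in QC cells, and *AGL42* was above 0 in 1 QC cell only. The same sum was between 0 and 5.82 FPM in stele cells at 16 h and between 0 and 16.4 FPM in stele cells at 0 h. The stele markers *SHR*, *WOL*, *ATHB8*, *PHB* and *TMO5* summed to at most 22.5 FPM in a QC cell, to between 2.42 and 203.6 FPM at 16 h and to between 398.2 and 1126.5 FPM at 0 h. Of the markers of root cap, epidermis, endodermis and phloem, *GL2* was above 0 in 1 QC cell, with 1.4 FPM, and in each of the 4 stele cells at 16 h, with up to 4.65 FPM, *FEZ* was above 0 in 3 aliquots, and the others were at 0 in every library.

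**Figure D1:**
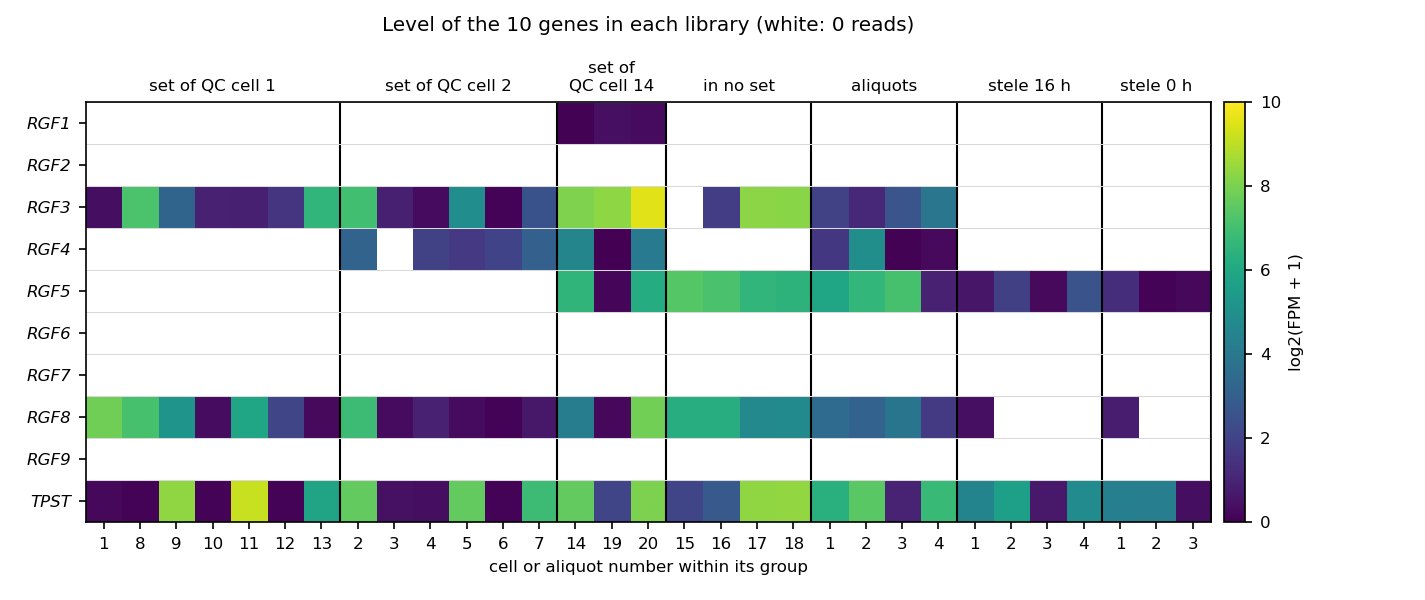
Level of the 10 genes (rows) in the 31 libraries (columns), as log2(FPM + 1) by color, with white for 0 reads. Columns are grouped by set for QC cells, then aliquots and the stele groups of 16 h and 0 h. *TPST* is colored in all 31 columns, *RGF3* and *RGF4* in QC libraries only, and 4 rows are white throughout.

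*TPST* (AT1G08030) was the only member above 0 in all 31 libraries. Its level in QC cells was 0.061 FPM at the lowest, 31.1 FPM at the median and 571.4 FPM at the highest. The cells fell into a low, a middle and a high range. In 7 QC cells (1, 3, 4, 6, 8, 10 and 12) *TPST* was at 0.355 FPM or less, and in QC cells 15, 16 and 19 it was at 3.31, 5.97 and 3.23 FPM. The other 10 QC cells held between 56.1 FPM, in QC cell 13, and 571.4 FPM, in QC cell 11. The nearly alike QC cells 15 and 16 fell in the middle range and the nearly alike QC cells 17 and 18 in the high range. The libraries of such a pair are not separate observations. The highest and lowest levels stood within the same set: QC cells 9 and 11 held 326.7 and 571.4 FPM, whereas QC cells 8, 10 and 12 of that set held 0.061, 0.0828 and 0.071 FPM. The aliquots held 81.1, 173.6, 0.931 and 108.5 FPM of *TPST*. Thus 1 of 4 aliquots of a single lysate was under 1 FPM.

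*RGF8* (AT2G03830) was above 0 in all 20 QC cells, and 1803 of the 14083 genes detected in any QC cell (12.8%) were so too. The lowest level in QC cells was 0.0815 FPM, the median 21.5 FPM and the highest 231.5 FPM. *RGF8* was at 1 FPM or more in 12 of the 20 QC cells, and in the other 8 it rested on few reads. QC cells 20, 1, 8 and 2, with 231.5, 225.3, 136.0 and 114.5 FPM, were the highest, and they belonged to each of the 3 QC sets. In the set of QC cell 2 only the lead library passed 1 FPM, and QC cells 3 to 7 held 0.0815 to 0.899 FPM on 1 to 24 reads. The aliquots were closer together, at 10.3, 7.9, 13.9 and 2.29 FPM.

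*RGF3* (AT2G04025) was above 0 in 19 of 20 QC cells, which was the case or exceeded for 2582 genes (18.3% of those detected in QC cells). QC cell 15 was the exception at 0, while its nearly alike partner QC cell 16 held 180 reads, or 2.49 FPM, in a library of 72145275 reads against 14193636. The level in QC cells had a median of 6.5 FPM and a maximum of 751.2 FPM, the highest of any *RGF* value. The set of QC cell 14 was high throughout, with 269.4, 315.9 and 751.2 FPM in QC cells 14, 19 and 20. QC cells 17 and 18 held 304.6 and 300.9 FPM, and QC cells 1, 3, 4, 6, 10 and 11 were under 1 FPM. The aliquots held 2.79, 1.16, 5.18 and 14 FPM, all below these 5 highest QC cells.

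*RGF5* (AT5G51451) split the QC cells by set. It was at 0 in all 13 QC cells of the sets of QC cells 1 and 2, and above 0 in the other 7. QC cells 14 and 20 held 92.1 and 72.6 FPM, QC cells 15 to 18 held 165.8, 139.9, 96 and 88.4 FPM, and QC cell 19 held 0.0995 FPM on 10 reads. Counting QC cells 15 and 16, and 17 and 18, once each leaves 5 cells in the place of these 7. The aliquots held 60.2, 97.4, 135.1 and 0.915 FPM. The same split of QC cells was found for 310 of the 14083 genes detected in QC cells (2.20%). A zero in QC cells 1 and 2 carries over to their sets by the nesting, so that these 13 zeros are not separate observations.

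*RGF4* (AT3G30350) was a low and patchy member. It was above 0 in 8 QC cells: at 8.09, 2.77, 2.2, 3.02 and 7.28 FPM in QC cells 2, 4, 5, 6 and 7, and at 22.7, 0.0199 and 16.7 FPM in QC cells 14, 19 and 20. None of the 7 cells in the set of QC cell 1 and none of QC cells 15 to 18 held a read. By the nesting, the 7 zeros of that set are not separate observations. The aliquots held 2.07, 29.7, 0.0391 and 0.194 FPM, so that 1 lysate gave both a higher value than any QC cell and values of 5 and 21 reads.

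*RGF1* (AT5G60810) was found only in the set of QC cell 14, with 5, 32 and 20 reads in QC cells 14, 19 and 20. These reads were 0.0434, 0.319 and 0.214 FPM, and the 3 libraries had totals of 115114702, 100463749 and 93606126 reads. When every library was thinned to 11637897 reads, *RGF1* remained in 2 QC cells with at most 8 reads. *RGF1* was at 0 in the aliquots, although these libraries held 83718007 reads or more.

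The 4 genes at 0 gave no level to compare. Their transcripts of 680 to 739 bases lay within the range of the *RGF* genes with reads, from 549 bases for *RGF5* to 950 for *RGF4*. The authors removed genes covered over less than 200 bases, and a 0 may stand for such a gene. Exons of *RGF2* and *RGF6* overlap those of a neighbor, AT1G13630 and AT4G16510, in the annotation. AT1G13630 was at 0 in all 31 libraries, whereas AT4G16510 was above 0 in 12 libraries and reached 118.3 FPM. The library kit did not keep strand, so that reads in such an overlap could not be assigned by it.

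**Figure D2:**
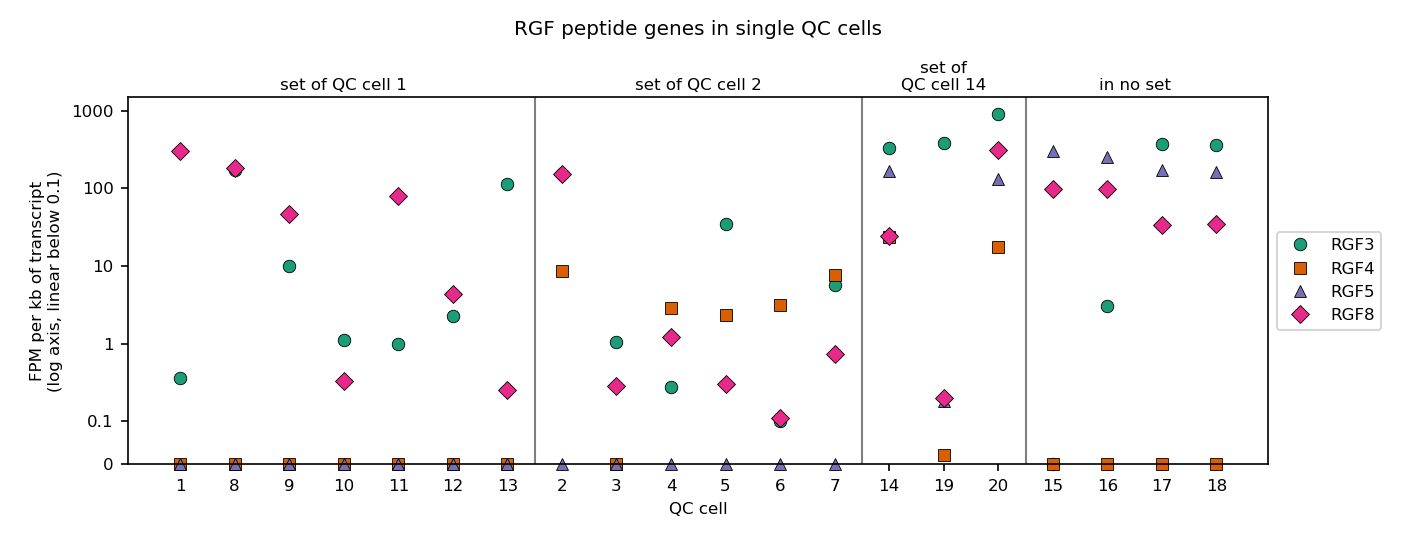
FPM per kb of transcript (log axis, linear below 0.1) of *RGF3*, *RGF4*, *RGF5* and *RGF8* in each of the 20 QC cells, grouped by set. *RGF5* lies at 0 in the sets of QC cells 1 and 2, *RGF3* is the top symbol in 9 cells and *RGF8* in 6.

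Levels of different genes were compared per kb of transcript. The median in QC cells was 28.9 FPM per kb for *RGF8*, 15.4 for *TPST*, 7.94 for *RGF3* and 0 for the others. These neighbors did not separate: the middle 50% of QC cells ran from 0.327 to 99.1 FPM per kb for *RGF8*, from 0.13 to 104.6 for *TPST* and from 1.03 to 213.8 for *RGF3*. *RGF8* exceeded *TPST* in 11 of 20 cells and *RGF3* in 10. Cell by cell, *RGF3* exceeded *TPST* in 15 of 20 cells, although its median was lower. The order depended on the summary, since the mean placed *RGF3* first at 143.9 FPM per kb, with *RGF8* at 69 and *TPST* at 63.8. *RGF3* was the highest *RGF* gene in 9 QC cells, *RGF8* in 6, *RGF4* in 3 (QC cells 4, 6 and 7) and *RGF5* in 2 (the nearly alike QC cells 15 and 16). Thus no single *RGF* gene led in every QC cell.

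The number of members at 1 FPM or more also varied between QC cells. There were none in 2 cells (3 and 10), 1 in 3 cells, 2 in 5 cells, 3 in 4 cells, 4 in 4 cells and 5 in 2 cells (14 and 20). Of the 77 member values above 0 in QC cells, 26 (33.8%) were under 1 FPM, close to the 34.6% over all loci. *RGF5* was never at 1 FPM without *RGF8* and *TPST* at that level in the same cell (6 cells). *RGF3* and *TPST* were both at 1 FPM or more in 11 cells and both below it in 5, with 2 cells each holding only 1 of them. Across the 20 QC cells Pearson's r of log2(FPM + 1) was 0.55 for this pair, 0.46 for *RGF5* with *RGF8* and between 0.05 and 0.35 for the other 8 pairs. These cells share sets, differ in depth and include the nearly alike pairs of QC cells 15 and 16 and of QC cells 17 and 18. Both pairs were among the 6 cells with *RGF5* at 1 FPM or more. The libraries of a pair are not separate observations, and the counts and coefficients are given as a description.

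The substrate genes were also set beside the enzyme as a sum over *RGF1* to *RGF9*. In the 7 QC cells with *TPST* under 1 FPM this sum was between 1.06 and 279.4 FPM, with a median of 3.89 FPM, and in the other 13 it was between 12.5 and 1072.2 FPM, with a median of 239.5 FPM. The ranges overlapped through QC cells 1 and 8, which held 225.6 and 279.4 FPM of *RGF* reads with *TPST* at 0.146 and 0.061 FPM. QC cell 11 showed the other side, with 571.4 FPM of *TPST* and 60.6 FPM of *RGF* reads. All 7 cells with *TPST* under 1 FPM belonged to the sets of QC cells 1 and 2, in which *RGF5* was at 0. In the other cells of these sets (2, 5, 7, 9, 11 and 13) the sum was between 12.5 and 247.7 FPM. The part of the sets in the contrast of the medians was not tested.

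**Figure D3:**
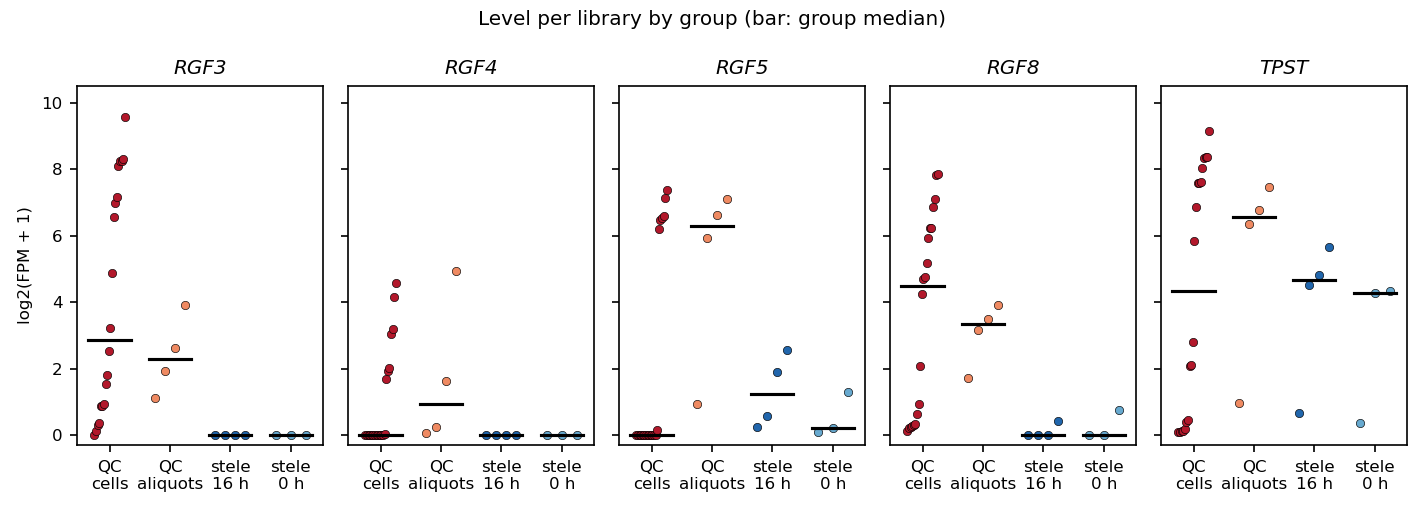
Level of the 5 most often detected members in single libraries, as log2(FPM + 1), for QC cells, aliquots and the stele groups of 16 h and 0 h, with a bar at each group median. *RGF3* and *RGF4* lie at 0 in all 7 stele cells, and *TPST* spans a wide range in each group.

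QC cells were then compared with stele cells at 0 h. *RGF3*, *RGF4* and *RGF1* were above 0 in 19, 8 and 3 of 20 QC cells and at 0 in all 3 stele cells at 0 h. By the nesting, a 0 in stele cell 1 carries over to its set, so that the 3 zeros of a gene are not separate observations. *RGF8* was above the highest stele cell in 13 of 20 QC cells. It held 8 reads (0.687 FPM) in stele cell 1 at 0 h and none in stele cells 2 and 3, and the difference of the medians was 4.47. The same stele cell 1 was the one at 0 h with QC marker reads, at 16.4 FPM in sum, and the part of these in the *RGF8* reads was not tested. The summed *RGF* level was between 1.06 and 1072.2 FPM in QC cells (median 154.9 FPM) and between 0.0711 and 2.15 FPM in stele cells at 0 h, and 16 of 20 QC cells were above every stele cell of both groups.

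*RGF5* and *TPST* had reads in both cell types. *RGF5* was above 0 in 7 of 20 QC cells and in all 3 stele cells at 0 h, where it was at 1.46, 0.0711 and 0.148 FPM on 17, 2 and 3 reads. The 17 reads were those of stele cell 1, the cell at 0 h with QC marker reads, and the part of these in them was not tested. The difference of medians was -0.20 over all QC cells, 6.34 with the QC cells nested in another library left out and 6.67 in QC cells 15 to 18 alone. *TPST* was at 0.061 to 571.4 FPM in QC cells and at 19.1, 18.5 and 0.295 FPM in stele cells at 0 h, within the range of the QC cells. The QC median differed by 0.03, which moved to 1.99 without stele cell 1 and to 3.29 without the nested QC cells. It was -4.09 in the set of QC cell 1 alone. Of the 20 QC cells, 10 were above every stele cell at 0 h in *TPST*.

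None of the 6 members separated the groups fully. Over the 16270 genes above 0 in any of these cells, every QC cell was higher for 27 (0.166%) and lower for 2359 (14.5%). The median difference was 0.02 over the 6 members and -1.90 over all genes tested. QC cells listed fewer genes, 4646 to 11035, against 11833 to 13082 in stele cells at 0 h.

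Stele cells at 16 h were then compared with stele cells at 0 h, and the 3 members with reads overlapped between the times. *TPST* was at 21.8, 49, 0.586 and 27 FPM at 16 h, against 19.1, 18.5 and 0.295 FPM at 0 h. In each group 1 cell was under 1 FPM, and the other 3 cells at 16 h were above every cell at 0 h. The medians differed by 0.37, and by 2.33 without stele cell 1 at 0 h and 2.31 without stele cell 2. *RGF5* was at 0.502, 2.76, 0.183 and 4.87 FPM at 16 h, against 1.46, 0.0711 and 0.148 FPM at 0 h. The *RGF5* medians differed by 1.05, and by 0.39 without stele cell 2 or 4 at 16 h. *RGF8* was held by 1 cell at each time, with 8 reads in each. Both were the lead libraries of their sets, and the one at 16 h was the only cell at 16 h with QC marker reads (5.82 FPM). *RGF1*, *RGF3* and *RGF4* were at 0 in all stele cells, where the zeros within each set are not separate observations.

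Of the 3 members above 0 in stele cells none separated the 16 h cells from the 0 h cells. Every cell at 16 h was higher for 1610 of 15156 genes (10.6%) and lower for 1913 (12.6%). The stele markers were lower in sum at 16 h in every cell, as given above.

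**Figure D4:**
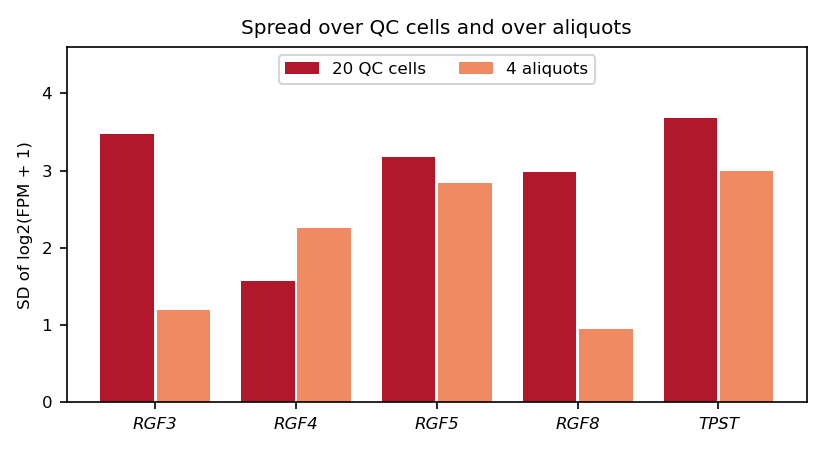
SD of log2(FPM + 1) over the 20 QC cells and over the 4 aliquots for the 5 members found in both. The SD was larger over QC cells for *RGF3*, *RGF5*, *RGF8* and *TPST*, and larger over aliquots for *RGF4*.

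The spread over QC cells was set against that over the aliquots, which share 1 lysate. The SD was 3.47 over QC cells and 1.19 over aliquots for *RGF3*, and 2.98 and 0.95 for *RGF8*. For both genes it stayed larger over QC cells when any aliquot was left out. For *TPST* the SDs were 3.68 and 2.99, with the aliquot SD resting on aliquot 3: without that aliquot the difference of the SDs was 3.13 in place of 0.69. *RGF5* had SDs of 3.17 and 2.84. Their difference was -0.26 without aliquot 1, -0.10 without aliquot 2 and 2.59 without aliquot 4. *RGF4* had SDs of 1.57 and 2.26, and the difference was 0.72 without aliquot 2. The SD was larger over QC cells for 4 of these 5 members and for 6469 of 10166 genes (63.6%). Aliquot libraries held 83718007 to 127775758 reads and QC libraries 12071810 to 115114702, with a median of 16739666, and the part of depth in the spread was not tested beyond thinning, which left each sign as it was.

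Other genes of the pathway were taken from lists of 34 genes. In QC cells against stele cells at 0 h, 1 of the 30 with reads (3.33%) was higher in every cell and 5 (16.7%) were lower, against 0.166% and 14.5% of all genes tested, so that the share lower was near that of all genes. *PLT1*, downstream of the peptides, was the higher one, at 0.674 to 1473.0 FPM in QC cells and 0 to 0.258 FPM in stele cells, and it is also among the QC markers above. *PLT2* was above every stele cell in 17 of 20 QC cells. The 5 lower genes were the receptor kinase gene AT5G56040, *SERK1* of the receptor partners, the site-1 protease *SBT6.1*, *APK4* of sulfate donor supply and *PSK5*. AT5G56040 was at 0 in all QC cells and between 33.1 and 243.9 FPM in stele cells at 0 h. By the nesting, zeros of QC cells of the same set are not separate observations. The 5 receptor kinase genes had a median difference of -4.24, against -1.90 over all genes tested. The median was lower in QC cells for 4 of them, by only 0.92 for AT5G48940, and only AT5G56040 did not overlap. AT1G34110 had a difference of 0.00: it was above 0 in 3 QC cells, with up to 334.1 FPM, and at 0 in stele cells at 0 h. AT3G24240 was the one found in most QC cells, in 18 of 20, with a median of 1.38 FPM in QC cells and 40.3 FPM in stele cells. *BAK1*, a co-receptor kinase, was above 0 in all 20 QC cells at a median of 289.0 FPM and overlapped with the 87 to 111.1 FPM of stele cells.

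At 16 h against 0 h, 1 of 28 pathway genes with reads (3.57%) was higher in every cell and 2 (7.14%) were lower, both smaller shares than the 10.6% and 12.6% of all genes tested. *PSKR2*, a phytosulfokine receptor, was at 4.41 to 49 FPM at 16 h and 0.0492 to 0.516 FPM at 0 h. *PSK2*, a precursor of the phytosulfokine that TPST sulfates, was at 43.3 to 348.7 FPM at 16 h and 0.295 to 144.3 FPM at 0 h, and its cells overlapped. AT5G56040 was lower at 2.82 to 12.7 FPM at 16 h, against 33.1 to 243.9 FPM at 0 h. *SBT6.1*, which cuts precursors, was at 0 in all 4 cells at 16 h and at 26 to 33.5 FPM at 0 h. These 4 zeros are not separate observations, since the 0 of the lead library at 16 h carries over to its set.

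Genes whose levels were most like those of a member across the 20 QC cells were sought for *TPST*, *RGF3* and *RGF8* among 5995 genes above 0 in at least 10 QC cells. *TPST* was most like *APRL4* (Pearson's r 0.97), *PNC1* (0.93), a carrier of adenine nucleotides into peroxisomes, and *UGT76C2* (0.87), a cytokinin glucosyltransferase. For *APRL4* r was 1.00 within the 7 cells of the set of QC cell 1 and 0.99 within the 6 cells of the set of QC cell 2. The cells of each set are among the 20 by which the genes were picked, so that r within a set is no separate support, here or below. *APRL4* was at 0 in all 7 stele cells, where *TPST* was above 0, and the zeros within each stele set are not separate observations. *RGF8* was most like AT5G62200 (0.88), *PERK8* (0.87), a receptor-like kinase gene, and *NAC084* (0.85). For these 3 genes r was 0.70, 0.92 and 0.83 within the set of QC cell 1 and 0.99, 0.89 and 0.85 within the set of QC cell 2. In QC cells 15 to 18, which are the pairs of nearly alike libraries, it had the opposite sign for all 3, with -0.97 for AT5G62200 and -0.99 for *PERK8*. Each pair acts much like a single point, which places r near 1 or -1 for any gene, so that no reversal can be read from it. For the genes most like *TPST* and *RGF3*, r there was 1.00. *RGF3* was most like *ADS2* (0.83), a fatty acid desaturase gene, *CLPP5* (0.82), a plastid protease subunit gene, and AT3G14240 (0.82). For *ADS2* r was 0.46 within the set of QC cell 1 and 0.91 within the set of QC cell 2.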

How the data were processed

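Reads of 50 bases were sequenced without strand from amplified cDNA. The authors aligned them to TAIR10 with Bowtie2 (version not given in the sources used here), in local mode with up to 6 locations per read. The authors summed reads on exons with partial weight for several locations, removed genes covered over less than 200 bases, normalized to depth and deposited log2 values. The smallest step of a library was taken as 1 read, and all 159016 values under 1000 reads came out whole within 0.05 reads. No fraction from the partial weights was seen among these values, and whether this step was 1 read for the authors was not tested. FPM and log2(FPM + 1) were computed from these reads with Python 3.11.15, numpy 2.4.6 and pandas 2.3.3. QC cells were collected in 4 batches, and the methods describe the digested roots as grown on a single plate, without saying for which collection. The labels name no plant or batch for a cell, so that no group difference was tested across cells, and a gap ratio in groups of 4 libraries served only to pick values for a closer look. Called means that the cells of 2 groups did not overlap. Sequences, lengths and names came from RefSeq TAIR10.1, which differs in name from the build of the authors, so that its coordinates apply to TAIR10.1 alone. The calls and the recovery of reads were tested on simulated data. The genes named were the members, the lists of pathway and marker genes and the 3 genes most like *TPST*, *RGF3* and *RGF8*. Members and lists were chosen with earlier results of these data known. Of the lists, 5 genes without the list's name in the annotation and 1 cortex marker were left out. The 5 receptor genes also lacked that name and were kept by locus, since the annotation gives them as leucine-rich repeat receptor kinases.

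The alternatives were levels of 1 and 10 FPM, thinning to the lowest total, other pseudocounts, median ratio scaling, the deposited log2 values, a filter on low means, nested or nearly alike QC cells left out or counted once, and leaving out single stele cells or aliquots. Chosen after seeing the data were QC cells of 1 set at a time and a level of 2 reads.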

Additional observations from a re-analysis of the deposited data

Results flagged for a closer look

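In groups of 4 libraries, a library far from the other 3 was sought by its gap to the nearest value over the range, on the log2(FPM + 1) scale. This served as a screen and not as a test of groups. Of 8 sets of 4 values, 2 had a ratio above Dixon's critical value, which chance alone passes in about 1 in 20 sets of independent values. The *TPST* level of aliquot 3 was low, with a ratio of 0.832 and 0.931 FPM on 119 reads. The *RGF8* level of stele cell 1 at 16 h stood alone above 0, with 0.335 FPM on 8 reads. Its ratio of 1.000 follows from the zeros of the other 3 cells and carries no further information.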

How the results depend on the processing

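At a level of 10 FPM, 1 member in place of 3 was detected in stele cells at 16 h and at 0 h. The difference of medians of QC cells over stele cells at 0 h moved for *RGF3* (2.86) to 7.21 on the deposited log2 scale, 6.98 without nested QC cells and 8.31 in the set of QC cell 14. For *RGF8* (4.47) it moved to 7.73 with a pseudocount of 0.1, 9.16 on the deposited scale and 0.46 in the set of QC cell 2. For *RGF5* (-0.20) it was 6.34 without nested QC cells, 6.00 in the set of QC cell 14 and 6.67 in QC cells outside a set. For *TPST* (0.03) it was -0.01 with a pseudocount of 0.1, -0.04 on the deposited scale, -0.12 with nearly alike QC cells counted once, -4.09 in the set of QC cell 1 and -0.64 in the set of QC cell 2. For *RGF1* (0.00) it was 0.28 in the set of QC cell 14, and for *RGF4* (0.00) it was 4.14 there and 1.96 in the set of QC cell 2. With each stele cell left out, the differences ran from 0.01 to 1.99 for *TPST*, from -0.75 to -0.15 for *RGF5* and from 4.09 to 4.47 for *RGF8*. Between 16 h and 0 h, *RGF5* (1.05) moved to 2.41 with a pseudocount of 0.1 and 2.72 on the deposited scale. With each cell left out it ran from 0.39 to 1.71, *RGF8* (0.00) from -0.38 to 0.00 and *TPST* (0.37) from 0.22 to 2.33. The SD over QC cells minus that over aliquots for *RGF5* (0.32) was 1.40 with a pseudocount of 0.1 and -0.01 with 10. With each aliquot left out it ran from -0.26 to 2.59 for *RGF5*, from -1.19 to 0.72 for *RGF4*, from 0.11 to 3.13 for *TPST*, from 2.03 to 2.71 for *RGF3* and from 1.83 to 2.61 for *RGF8*. By mean, the order per kb placed *RGF3* at 1, *RGF8* at 2, *TPST* at 3, *RGF5* at 4, *RGF4* at 5 and *RGF1* at 6. In FPM without transcript length, or with nearly alike QC cells counted once, *TPST* was at 1 and *RGF8* at 2. The cause of these moves was not tested.

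Reads were not molecules, since cDNA was amplified and molecules were not counted, so that values of a few reads are uncertain beyond counting error. Detection differed with depth and with the sets, and 3 cells at 0 h and 4 at 16 h bound what medians can show. No paired analysis was possible because the replicate numbers of the groups name separate cells and no group difference was tested.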
